A study of Mus musculus with 18 samples.

Results

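A set of 10 genes that govern entry into the cell cycle was described in E14 mouse embryonic stem cells (mESCs) held on hydrogels of different stiffness and extracellular matrix (ECM) tethering. The genes were chosen by name: the D cyclins Ccnd1, Ccnd2 and Ccnd3, the E cyclins Ccne1 and Ccne2, the CDK inhibitors Cdkn1a, Cdkn1b and Cdkn1c, and the Myc factors Myc and Mycn. They are 10 of the 46078 genes in the count table and 10 of its 21519 protein-coding genes, and all 10 passed the filter on low counts. E14 is an established wild-type line, labelled 129m wt. All libraries shared a culture of 24 h in medium with serum and the cytokine LIF on StemBond hydrogels, which are polyacrylamide gels, here coated with fibronectin, and the labels differ only in the gel. The soft gels had a stiffness near 750 Pa and the stiff gels one near 160 kPa. Each stiffness was made with AHA at a low concentration of 16 mM, a mid concentration of 48 mM and a high concentration of 80 mM, AHA being the co-factor that sets how strongly ECM protein is tethered to the gel. Each of the 6 groups had 3 libraries of total RNA, and the replicate numbers used here only name libraries in sample order, since the labels carry none.

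Cyclins activate the cyclin-dependent kinases (CDKs). D cyclins pair with CDK4 and CDK6 and carry growth factor and adhesion signals to the retinoblastoma (RB) proteins, and E cyclins pair with CDK2 to start DNA replication. The CIP/KIP inhibitors, encoded by Cdkn1a, Cdkn1b and Cdkn1c, bind cyclin-CDK complexes and restrain them, while Myc and Mycn are transcription factors that drive growth and proliferation. Mouse embryonic stem cells are known for a short G1 phase, abundant cyclin E and a requirement for Myc or Mycn, and much of the control of these proteins lies in their degradation, which counts of RNA do not measure.

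Gene counts per library ranged from 5850621 to 9290261. Counts of replicates were further apart than sampling alone gives in all 18 pairs (chi-square per degree of freedom 1.82 to 3.07), but nothing stated that they came from separate cultures, so p-values measure the spread between these libraries, which may be technical. Synthetic ERCC spike-in RNAs took 0.607 to 0.725% of counts in 17 libraries and 1.37% (95% Wilson interval 1.36 to 1.38%, counting error only) in soft, high AHA replicate 1. That library was set aside, which left 8 soft and 9 stiff libraries. The defining stem cell markers were present at high level, with Pou5f1 at 551 ± 22.4 CPM (TMM-normalised counts, scaled to a common total per library; SD, n = 8) on soft and 541 ± 30.1 CPM (n = 9) on stiff substrates, Nanog at 136 ± 7.95 and 105 ± 5.14 CPM, and Sox2 at 339 ± 16.1 and 294 ± 19.1 CPM. Calls and log2 fold changes in this paragraph are for soft against stiff substrates averaged over the 3 AHA concentrations. A call is an edgeR adjusted p under 0.05, which 8.59% of all genes tested reached. Of the 8 stem cell markers listed, 5 were called higher on soft substrates (Nanog, Sox2, Esrrb, Klf4 and Zfp42). Utf1 was called lower (log2 fold change -0.14), and Pou5f1 (0.033) and Tdgf1 (-0.069) were not called. Their summed CPM was 2037 to 2231 on soft and 1898 to 2051 on stiff substrates. Marker lists of other cell types had far lower sums that were not 0, and for each list the soft and stiff ranges of the sum overlapped. Summed CPM of 4 trophoblast markers was 66.0 to 93.8 on soft and 87.3 to 110 on stiff substrates, and that of 6 fibroblast markers 111 to 189 and 165 to 233. Of 3 trophoblast markers tested, Hand1 (log2 fold change -0.30) and Krt7 (-0.25) were called lower on soft substrates. Of 5 fibroblast markers tested, Col1a1, which made up most of that sum, was called lower (-0.49), and the others, from Pdgfrb (-0.45) to Postn (0.54), were not called. The sums of 6 primitive endoderm markers (35.6 to 50.6 against 36.6 to 47.3), 5 mesendoderm markers (19.6 to 30.1 against 17.3 to 32.8) and 4 neural markers (114 to 126 against 94.4 to 122) had no member called. The part of these cell types in the differences below was not tested.

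Of the 10 genes, 3 were lower and 1 was higher on soft than on stiff substrates when the difference was averaged over the 3 AHA concentrations. Ccnd1 fell by 0.28 ± 0.040 (SE) on the log2 scale, Myc fell by 0.22 ± 0.041 and Ccne1 fell by 0.13 ± 0.028, while Cdkn1b rose by 0.40 ± 0.091. The call was an adjusted p under 0.05 in edgeR's quasi-likelihood test with Benjamini-Hochberg adjustment over 13438 protein-coding genes, and 8.59% of those genes were called in the same contrast. The median log2 fold change was -0.074 over the 10 genes and 0.0011 over all genes tested. Counts come from bulk RNA, in which fewer cells expressing a gene and less RNA per cell cannot be told apart.

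**Figure D1:**
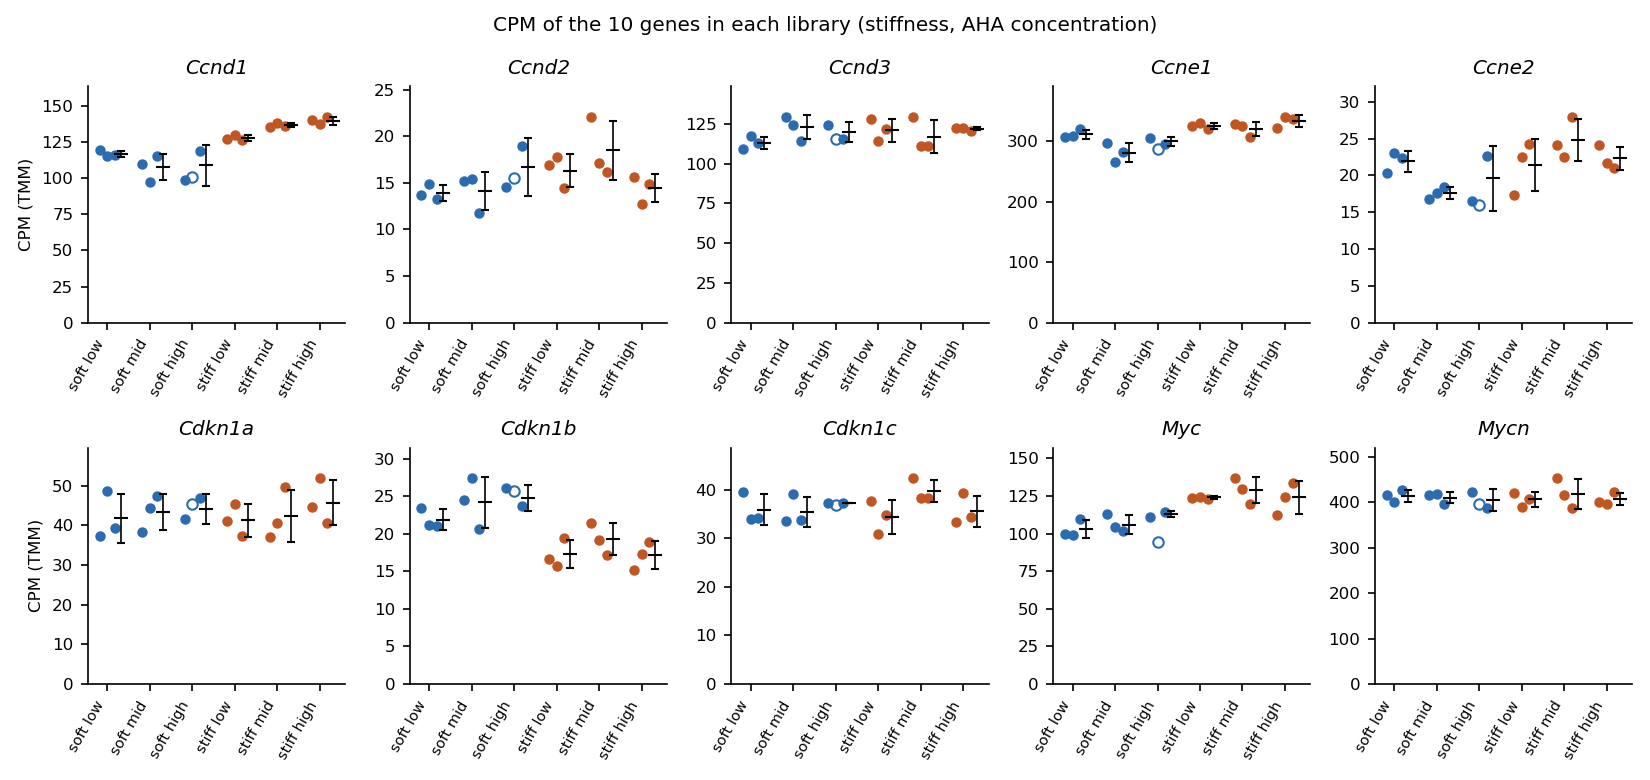
CPM of each of the 10 genes (y axis, from 0) in every library, by stiffness and AHA concentration (x axis), with soft libraries in blue and stiff in orange. Bars give the mean ± SD without the library set aside, which is the open circle. All 8 soft libraries lay below all 9 stiff libraries for Ccnd1, while the ranges of the other 9 genes overlapped.

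Ccnd1 encodes cyclin D1, the D cyclin most closely tied to adhesion and growth factor signals. It lies on chromosome 7 (GRCm38, 144929931 to 144939925, minus strand), and its merged exons span 4709 bases. Ccnd1 was measured on soft substrates at 119.8, 116 and 116 CPM at low AHA, 109.9, 97.7 and 116 CPM at mid AHA, and 99.0 and 119 CPM at high AHA. On stiff substrates it was measured at 128, 130.2 and 127 CPM at low AHA, 136, 139 and 136 CPM at mid AHA, and 140.2, 137 and 143 CPM at high AHA. All 8 soft libraries lay below all 9 stiff libraries, which held for 0.871% of genes tested, and the library set aside, at 101 CPM, also lay below them. Means were 112 ± 8.68 CPM on soft (n = 8) and 135 ± 5.65 CPM on stiff substrates (n = 9), 17.7% lower in the fit (edgeR adjusted p = 1.16e-08). Between neighbouring groups in order of level, ranges were apart only from soft low AHA (117 ± 2.19 CPM, n = 3) to stiff low AHA (128 ± 1.82 CPM) and from there to stiff mid AHA (137 ± 1.63 CPM). Neither step passed the test (edgeR adjusted p = 0.419 and 0.98). At low AHA, 18.2% of all genes had soft and stiff ranges apart in either direction, and the share between the stiff groups was not counted. Soft mid and soft high AHA, at 108 ± 9.12 and 109 ± 14.0 CPM, overlapped, as did stiff mid and stiff high AHA (140 ± 2.67 CPM). Exons of another gene on the opposite strand cover 23.4% of the Ccnd1 exons. Whether counting used the strand was not stated, so the overlap could have altered the Ccnd1 count.

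The other D cyclins did not pass the test. Ccnd2, which encodes cyclin D2 (chromosome 6, 127125162 to 127152193, minus strand), ranged from 11.8 to 18.9 CPM on soft and from 12.8 to 22.1 CPM on stiff substrates, and the ranges overlapped. With only 53 to 102 reads per library it was the least precisely measured of the 10, and its log2 fold change of -0.14 ± 0.10 had a 95% interval from -0.34 to 0.068 (edgeR adjusted p = 0.501). The Ccnd2 value was -0.0792 without soft, high AHA replicate 2 and -0.0885 without stiff, mid AHA replicate 1. Ccnd3, which encodes cyclin D3 (chromosome 17, 47505051 to 47599691, plus strand), was at 119 ± 6.85 CPM on soft and 120 ± 6.73 CPM on stiff substrates. Its log2 fold change of -0.017 ± 0.041 had an interval from -0.10 to 0.063. Ccnd3 is uncertain in level, because a processed copy elsewhere, Ccnd3-ps, shares up to 88.2% of a Ccnd3 transcript at 95% identity or more.

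Compared per kilobase of merged exons as counted, Ccnd1 stood above Ccnd3 and Ccnd2 in every library. Reads of Ccnd3 that could not be told from its copy may be missing, so its level, and with it the order, the shares and the sum given here, could be off by an amount that was not measured. Ccnd1 stood at 23.7 ± 1.84 CPM per kb on soft and 28.7 ± 1.20 on stiff substrates, Ccnd3 at 13.5 ± 0.780 and 13.7 ± 0.767, and Ccnd2 at 1.56 ± 0.221 and 1.74 ± 0.278. With that limit, Ccnd1 made up 61.1 ± 3.03% of the summed D cyclin level on soft and 65.0 ± 1.74% on stiff substrates. The sum of the 3 genes ranged from 36.6 to 40.4 CPM per kb in soft libraries and from 42.3 to 45.9 in stiff libraries, and the ranges did not overlap. Ccnd1, the largest part of the sum, was apart in the same way, as were 0.871% of genes tested. Ccnd2 and Ccnd3 overlapped, so the sum mainly repeats the result of Ccnd1. The D cyclin sums and the shares of their members were described without a test.

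**Figure D2:**
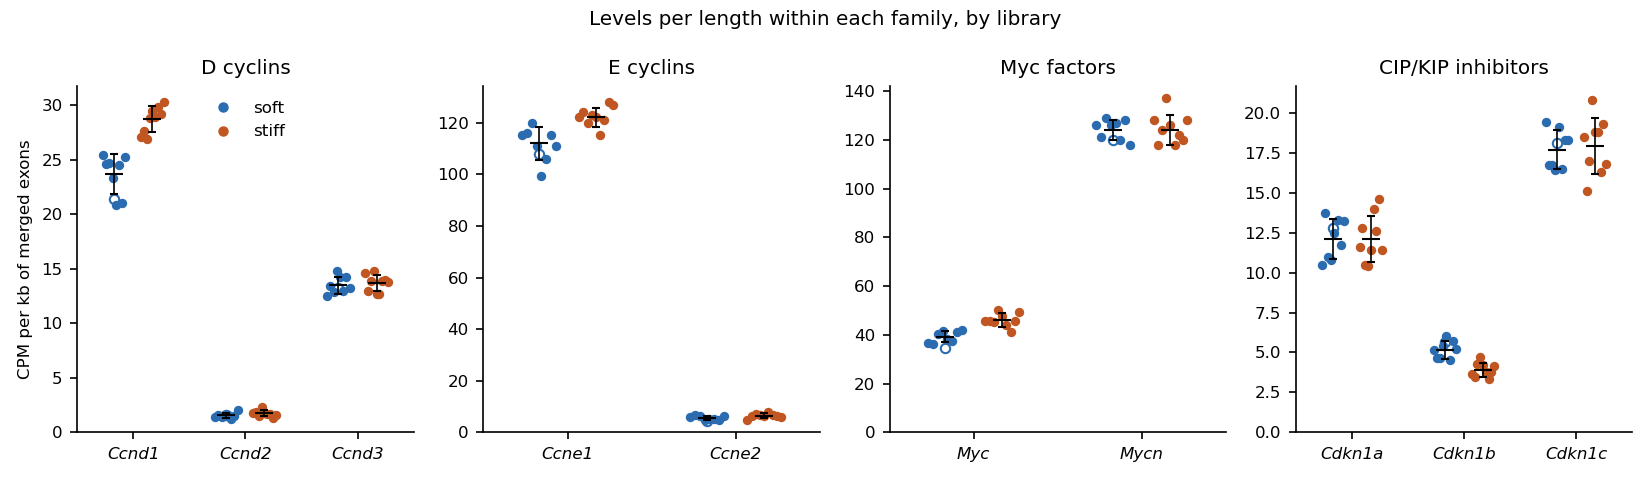
Level of each gene in CPM per kb of merged exons (y axis, from 0) within the D cyclins, E cyclins, Myc factors and CIP/KIP inhibitors, with soft libraries in blue and stiff in orange. Bars give the mean ± SD of 8 soft and 9 stiff libraries, and the open circle is the library set aside. Ccnd1, Ccne1, Mycn and Cdkn1c were the highest of their families at both stiffnesses.

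Ccne1 encodes cyclin E1, the CDK2 partner at the start of S phase (chromosome 7, 38097984 to 38107534, minus strand, 2662 bases of exons, no exon of another gene on the opposite strand). Ccne1 was measured on soft substrates at 306, 309 and 319 CPM at low AHA, 297, 265 and 281 CPM at mid AHA, and 305 and 295 CPM at high AHA, with 287 CPM in the library set aside. On stiff substrates it was measured at 325, 329.8 and 320.2 CPM at low AHA, 327, 326 and 307 CPM at mid AHA, and 321, 340.0 and 337 CPM at high AHA. In 6 of 8 soft libraries Ccne1 lay below all 9 stiff libraries, and the exceptions were soft, low AHA replicates 2 and 3. The change was small but precisely measured, from 326 ± 9.57 CPM on stiff (n = 9) to 297 ± 17.2 CPM on soft substrates (n = 8, edgeR adjusted p = 0.000228). In order of level, the soft groups ran from mid (281 ± 15.9 CPM, n = 3) through high (300 ± 7.35 CPM, n = 2) to low AHA (311 ± 7.02 CPM, n = 3). The range at low AHA lay above those at mid and high AHA, and the share of all genes apart in this way was not counted. Neither mid against low AHA (edgeR adjusted p = 0.518) nor high against low AHA (0.837) passed the test on soft substrates. The 3 stiff groups, from 320 ± 11.1 to 333 ± 9.97 CPM, overlapped.

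Ccne2, which encodes cyclin E2 (chromosome 4, 11191351 to 11204779, plus strand), was far less abundant, with Ccne1 making up 95.2% of the summed E cyclin level per kilobase on soft and 94.9% on stiff substrates. Ccne2 was at 19.7 ± 2.74 CPM on soft (n = 8) and 22.8 ± 2.87 CPM on stiff substrates (n = 9), and it was not called in the average contrast (log2 fold change -0.22 ± 0.091, 95% interval -0.40 to -0.04, edgeR adjusted p = 0.126). That result turned on which soft, high AHA library was kept. Without soft, high AHA replicate 3, at 22.7 CPM, the log2 fold change was -0.298 and the adjusted p 0.0497, and without replicate 2, at 16.4 CPM, they were -0.148 and 0.45. Each of these fits left a single library in that group, which was assumed to vary like the other groups. Exons of Ints8 on the opposite strand cover 17.4% of the Ccne2 exons.

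Myc, which encodes the transcription factor c-Myc, lies on chromosome 15 (61985391 to 61990374, plus strand). Myc was measured on soft substrates at 99.9, 98.9 and 109.9 CPM at low AHA, 113, 104 and 102 CPM at mid AHA, and 111 and 114 CPM at high AHA. On stiff substrates it was measured at 124, 124 and 123 CPM at low AHA, 137, 129.6 and 119.7 CPM at mid AHA, and 112, 124 and 134 CPM at high AHA. In 6 of 8 soft libraries Myc lay below all 9 stiff libraries, and the ranges met only through stiff, high AHA replicate 1. The library set aside, at 94.2 CPM, had the lowest Myc level of all 18. Means were 107 ± 6.24 CPM on soft (n = 8) and 125 ± 7.31 CPM on stiff substrates (n = 9, edgeR adjusted p = 1.7e-05). Group means ran from soft low (103 CPM) through soft mid (106 CPM) and soft high AHA (113 CPM) to stiff high (124 CPM), stiff low (124 CPM) and stiff mid AHA (129 CPM), and every pair of neighbours in this order overlapped.

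Mycn, which encodes the paralog N-Myc (chromosome 12, 12936093 to 12941914, minus strand), had the highest CPM of the 10 genes and its level was the most closely bounded. Mycn stood at 410 ± 13.7 CPM on soft (388 to 426 CPM, n = 8) and 410 ± 20.3 CPM on stiff substrates (388 to 452 CPM, n = 9). The log2 fold change was -0.0021 ± 0.027 with a 95% interval from -0.055 to 0.051 (edgeR adjusted p = 0.978), an interval that does not reach the change of Myc. Group means lay between 404 and 418 CPM and all neighbours overlapped. Per kilobase, Mycn made up 76.0 ± 1.20% of the summed level of Myc and Mycn on soft and 73.0 ± 0.818% on stiff substrates. The summed level was 164 ± 4.91 CPM per kb on soft and 171 ± 8.33 on stiff substrates, with overlapping ranges (158 to 170 and 162 to 188).

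Cdkn1b encodes the inhibitor KIP1, which binds CDK2 complexes and is lowered as cells leave quiescence, and it was the gene of the set that rose (chromosome 6, 134920401 to 134925513, plus strand). Cdkn1b was measured on soft substrates at 23.5, 21.1 and 21.1 CPM at low AHA, 24.5, 27.4 and 20.6 CPM at mid AHA, and 26.0 and 23.6 CPM at high AHA, with 25.7 CPM in the library set aside. On stiff substrates it was measured at 16.7, 15.8 and 19.4 CPM at low AHA, 21.4, 19.2 and 17.2 CPM at mid AHA, and 15.2, 17.4 and 18.9 CPM at high AHA. In 5 of 8 soft libraries Cdkn1b lay above all 9 stiff libraries, and the overlap came from stiff, mid AHA replicate 1, the highest stiff library. Means were 23.5 ± 2.46 CPM on soft (n = 8) and 17.9 ± 1.97 CPM on stiff substrates (n = 9), a 1.32-fold difference (95% interval of the log2 fold change 0.22 to 0.58, edgeR adjusted p = 0.000694). The gene had 64 to 163 reads per library, and no exon of another gene lies opposite its exons. Neighbouring groups overlapped throughout the order, from stiff high AHA (17.2 ± 1.87 CPM) to soft high AHA (24.8 ± 1.70 CPM).

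The other inhibitors did not pass the test. Cdkn1a, which encodes the p53-induced inhibitor CIP1 (chromosome 17, 29090976 to 29100727, plus strand), was at 43.0 ± 4.44 CPM on soft (37.3 to 48.7 CPM, n = 8) and 43.1 ± 5.19 CPM on stiff substrates (36.9 to 51.8 CPM, n = 9). Its log2 fold change of 0.006 ± 0.067 had an interval from -0.13 to 0.14 (edgeR adjusted p = 0.977). Cdkn1c, which encodes KIP2 and is an imprinted gene (chromosome 7, 143458339 to 143461050, minus strand), was at 36.0 ± 2.50 and 36.6 ± 3.54 CPM, with a log2 fold change of -0.014 ± 0.070 and an interval from -0.15 to 0.12. Exons of Gm44732 on the opposite strand cover 30.7% of the Cdkn1c exons. Per kilobase, Cdkn1c (17.7 ± 1.23 CPM per kb on soft substrates) stood above Cdkn1a (12.1 ± 1.25) and Cdkn1b (5.16 ± 0.541), so the inhibitor that changed was the least abundant of the 3. Cdkn1b made up 14.8 ± 1.28% of the summed inhibitor level on soft and 11.6 ± 1.31% on stiff substrates, and the sums themselves were 34.9 ± 1.80 and 34.0 ± 2.27 CPM per kb.

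**Figure D3:**
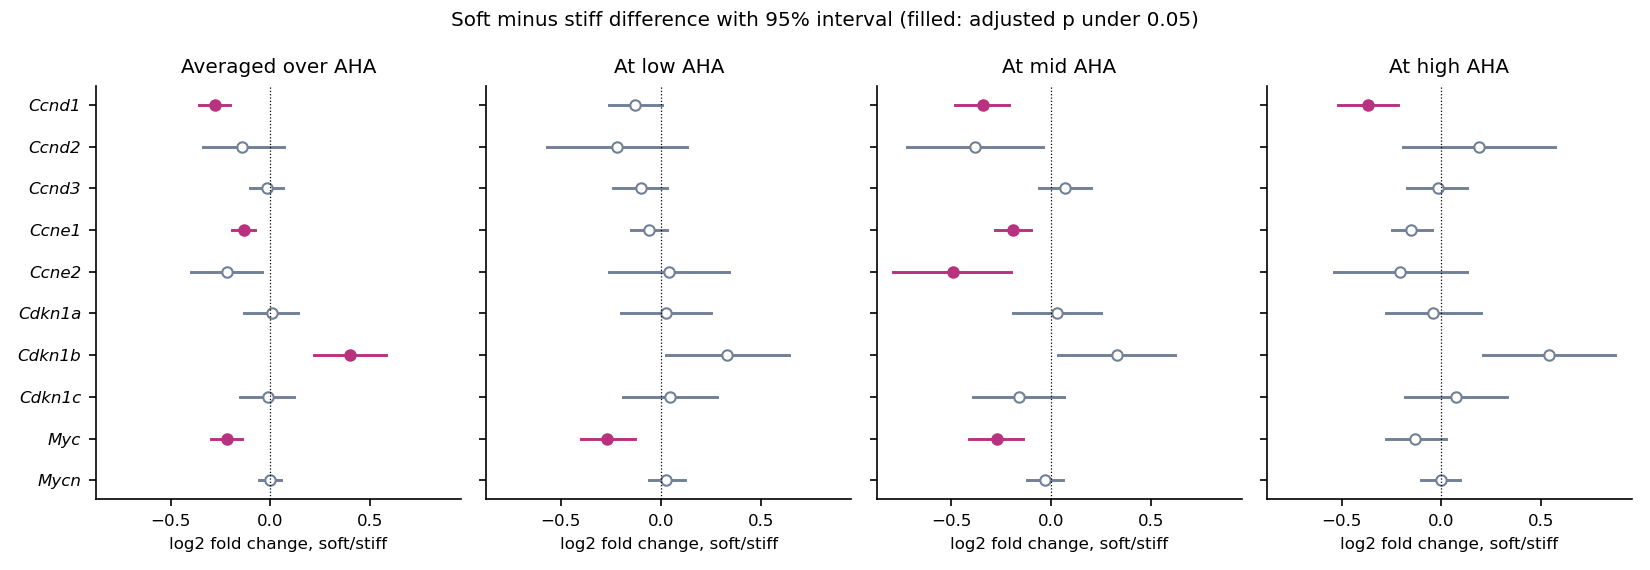
Log2 fold change of soft over stiff substrates (x axis) with its 95% interval for each of the 10 genes (y axis), averaged over AHA and at low, mid and high AHA. Filled points had an edgeR adjusted p under 0.05: 4 genes in the average, 1 at low, 4 at mid and 1 at high AHA.

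Taken at one AHA concentration at a time, the stiffness difference passed the test for 1 gene at low, 4 at mid and 1 at high AHA. At low AHA, Myc was called (log2 fold change -0.27 ± 0.070, edgeR adjusted p = 0.0101), 1 gene of 10 where 3.04% of all genes were called. The call at low AHA was lost without soft, low AHA replicate 1 (adjusted p = 0.0871) or 2 (0.0973). Ccnd1, Ccne1 and Myc were lower and Cdkn1b was higher in every soft than in every stiff library at this concentration, and 18.2% of all genes had ranges that did not overlap in either direction there. Of these, Ccnd1 (-0.13, edgeR adjusted p = 0.419), Ccne1 (-0.061, 0.643) and Cdkn1b (0.33 ± 0.16, edgeR adjusted p = 0.32) did not pass the test.

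At mid AHA 4 genes were lower on soft substrates, where 2.86% of all genes were called. Ccnd1 fell by 0.34 ± 0.066 on the log2 scale (edgeR adjusted p = 0.000139), Myc fell by 0.27 ± 0.068 (0.00763), Ccne1 fell by 0.19 ± 0.047 (0.00702) and Ccne2 fell by 0.49 ± 0.15 (0.0458). These 4 genes and Ccnd2 (-0.38, edgeR adjusted p = 0.283) had soft ranges below the stiff ranges, as had 9.48% of all genes. For Ccne2 the soft libraries were at 16.8, 17.5 and 18.5 CPM and the stiff libraries at 24.1, 22.5 and 27.9 CPM. Without soft, mid AHA replicate 2, Ccnd1 alone of the 4 stayed called, with adjusted p-values of 0.139 for Ccne1, 0.125 for Ccne2 and 0.0529 for Myc. Without stiff, mid AHA replicate 1, Ccnd1 again stood alone, with 0.0653 for Ccne1, 0.0959 for Ccne2 and 0.106 for Myc. Ccne1 was also lost without stiff replicate 2 (0.0689), Myc without soft replicate 3 (0.0681), and Ccne2 without 9 of the 17 libraries in turn (up to 0.275), which left the cyclin E2 call close to the threshold.

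At high AHA, where 2 soft libraries remained, Ccnd1 was called (log2 fold change -0.37 ± 0.075, edgeR adjusted p = 0.00106), 1 gene of 10 where 0.841% of all genes were called. Without soft, high AHA replicate 2, the log2 fold change was -0.248 and the adjusted p 0.276, and without replicate 3 they were -0.502 and 0.000605. Each of these fits left 1 soft, high AHA library, which was assumed to vary like the other groups. Cdkn1b had its largest estimate here, 0.54 ± 0.17, but did not pass the test (edgeR adjusted p = 0.0996), and neither did Ccne1 (-0.15, 0.18) or Myc (-0.13, 0.594). Ccnd1 and Ccne1 were lower and Cdkn1b was higher in both soft than in all 3 stiff libraries, against 24.7% of all genes without overlap in either direction. With the library set aside put back, all 3 of these genes were called. Whether the stiffness difference itself varied with AHA was tested by an interaction F test, and edgeR called none of the 10 genes (0.0298% of all genes). Unadjusted p was under 0.05 for Ccnd1 (0.0246, adjusted 0.723) and Ccne2 (0.0445, adjusted 0.739), as it was for 902 of all 13438 genes, and DESeq2 also called 0 of the 10.

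ECM tethering at fixed stiffness gave no call for any of the 10 genes. On soft substrates edgeR called 0 of 10 for high against low AHA (0.253% of all genes called), high against mid AHA (0.0670%) and mid against low AHA (0%), with lowest adjusted p-values among the 10 of 0.668, 0.748 and 0.518. On stiff substrates it called 0 of 10 for high against low AHA (0.00744%), high against mid AHA (0.00744%) and mid against low AHA (0%), with lowest adjusted p-values of 0.82, 0.871 and 0.98. DESeq2 called 0 of 10 in each of these comparisons. Without adjustment, edgeR gave p-values under 0.05 for Ccne1 (0.00173, log2 fold change -0.15) and Ccne2 (0.0394, -0.32) in mid against low AHA on soft substrates, and for Ccnd1 (0.0483, 0.13) in high against low AHA on stiff substrates. Of all 13438 genes, 820 and 812 had such p-values in these comparisons. In the other 4 comparisons 0 of the 10 genes had such a p-value. Of all genes, 1144 (high against low AHA) and 915 (high against mid AHA) had one on soft substrates. On stiff substrates 783 (high against mid AHA) and 671 (mid against low AHA) of all genes had one. The 6 comparisons share groups and are not independent of each other.

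The wider machinery was described with gene lists around the 10 genes. Of 8 CDKs and INK4 inhibitors, 1 was lower on soft substrates in the average contrast, and it was Cdk6, a kinase partner of the D cyclins (86.7 ± 5.84 CPM on stiff, n = 9, and 69.2 ± 4.64 CPM on soft substrates, n = 8; log2 fold change -0.32 ± 0.049, edgeR adjusted p = 6.72e-08). The list's median log2 fold change was 0.015. Among 13 RB and E2F factors, 4 were lower and 1 was higher, with a median of -0.07. The 3 with the lowest adjusted p were E2f6 (-0.30 ± 0.061), E2f8 (-0.19 ± 0.040) and E2f4 (-0.10 ± 0.027), known mainly as repressors. The other two called, named after their values were seen, were the activator E2f3, which was lower (-0.16 ± 0.054), and the E2F partner Tfdp2, which was higher (0.16 ± 0.049), while the repressors E2f5 (-0.074) and E2f7 (-0.071) were not called. Of 19 S phase genes 2 were lower, the replication licensing factor Cdc6 (-0.17 ± 0.044) and the ribonucleotide reductase subunit Rrm2 (-0.11 ± 0.033), with a median of -0.03. Of 16 mitosis genes 2 were higher by small amounts, the spindle checkpoint kinase gene Bub1b (0.094 ± 0.027) and the kinetochore gene Cenpf (0.081 ± 0.026), with a median of 0.035.

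The remaining lists are tied to the inhibitors and to Myc. Of 15 p53 targets, the pathway that acts on Cdkn1a, 2 were higher and 3 lower with a median of 0.015, and the leading ones were Trp53inp1 (0.19 ± 0.030), Perp (-0.22 ± 0.043) and the antiproliferative gene Btg2 (0.25 ± 0.060). Of 11 partners and antagonists in the MYC and MAX network, 1 was higher, the MAX-binding repressor Mga (0.12 ± 0.026), with a median of 0.087. Of 16 MYC target genes of ribosome biogenesis and growth, 2 were lower, the nucleolar helicase gene Ddx21 (-0.085 ± 0.021) and Odc1, for the first enzyme of polyamine synthesis (-0.13 ± 0.034), with a median of -0.042. Of 10 genes that act on the degradation of cyclins, KIP1 and MYC, 2 were higher, the deubiquitinase gene Usp28 (0.24 ± 0.037) and the F-box gene Fbxo31 (0.23 ± 0.059), with a median of 0.046. All genes named as called from the lists had an edgeR adjusted p from 6.72e-08 to 0.0359, beside the 8.59% of all genes called.

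**Figure D4:**
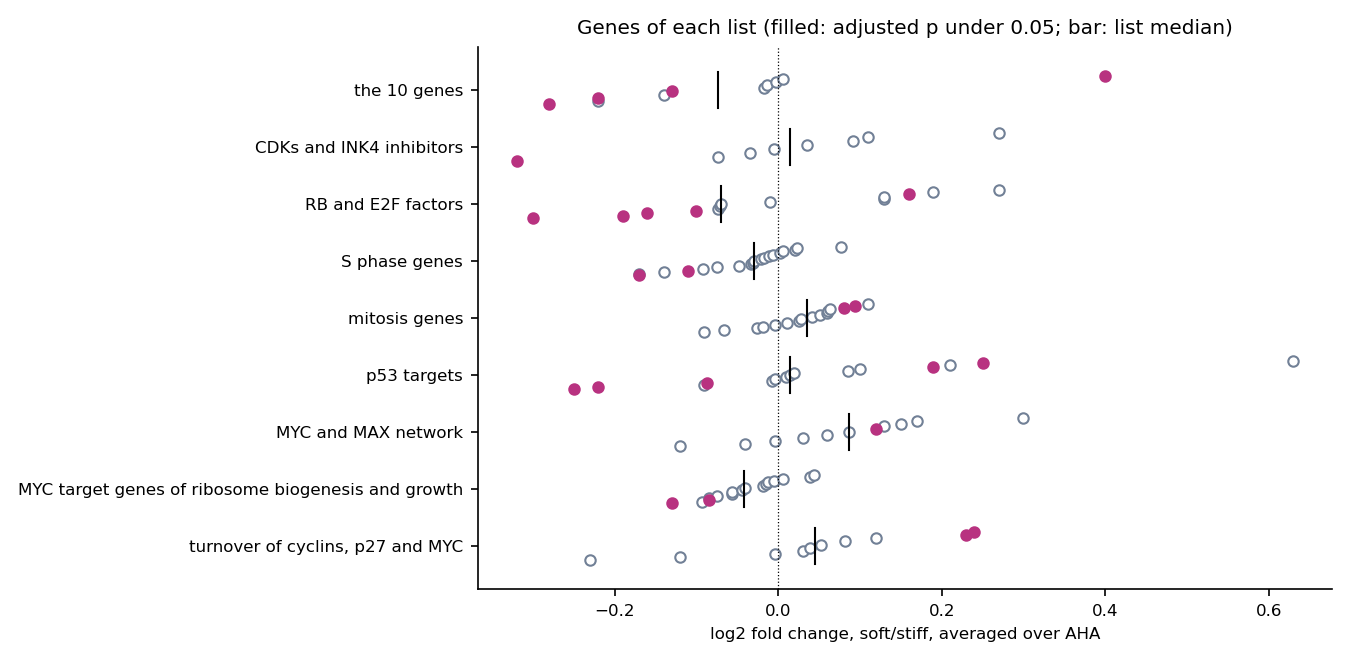
Log2 fold change of soft over stiff substrates averaged over AHA (x axis) for each tested gene of the 10 and of 8 lists around them (y axis). Filled points had an edgeR adjusted p under 0.05 and black bars mark list medians, which lay between -0.074 for the 10 genes and 0.087 for the MYC and MAX network.

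For each called gene, the 3 genes with the most similar profile over the 17 libraries were listed among 10704 genes whose mean reached 5 CPM. The libraries differ in stiffness, so any pair of genes that both changed with stiffness will correlate, and the values are a description. Ccnd1 was closest to Mfn2 (r = 0.88), Unc5b (0.86) and Ccn1 (0.86), and Ccne1 to Rhoc (0.86), Unc5b (0.85) and Zfp532 (0.85). Myc was closest to Bex1 (0.92), Pfkfb3 (0.92) and Noct (0.90). Cdkn1b was closest to Baz2a (0.91), Tcl1 (0.91) and Mybl2 (0.87).

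The RefSeq promoter table matched 5 of the 10 genes, Ccnd3, Ccne1, Cdkn1a, Cdkn1b and Mycn, and Ccnd1, Ccnd2, Ccne2, Cdkn1c and Myc are named only. Promoter sequence is printed for the inhibitor that rose, the main E cyclin that fell and the Myc factor with the narrowest interval around 0, to set their start regions side by side. Each is the run of 250 bases before the transcription start in that table for GRCm38.p6, written 5′ to 3′ on the strand of the gene. Capitals mark matches to the E2F motif TTTNGCGC on either strand, of which the first pair overlap.
Cdkn1b, chr6:134920151-134920400, plus strand: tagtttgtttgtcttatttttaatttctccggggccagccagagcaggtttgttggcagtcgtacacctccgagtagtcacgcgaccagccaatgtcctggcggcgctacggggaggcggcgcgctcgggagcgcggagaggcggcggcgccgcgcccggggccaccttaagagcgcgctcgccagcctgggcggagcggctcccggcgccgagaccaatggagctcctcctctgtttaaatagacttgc
Ccne1, chr7:38107491-38107740, minus strand: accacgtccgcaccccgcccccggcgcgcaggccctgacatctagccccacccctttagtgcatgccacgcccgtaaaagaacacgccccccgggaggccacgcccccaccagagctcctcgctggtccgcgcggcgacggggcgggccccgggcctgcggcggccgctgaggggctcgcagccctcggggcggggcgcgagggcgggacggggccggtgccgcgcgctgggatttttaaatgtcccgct
Mycn, chr12:12941837-12942086, minus strand: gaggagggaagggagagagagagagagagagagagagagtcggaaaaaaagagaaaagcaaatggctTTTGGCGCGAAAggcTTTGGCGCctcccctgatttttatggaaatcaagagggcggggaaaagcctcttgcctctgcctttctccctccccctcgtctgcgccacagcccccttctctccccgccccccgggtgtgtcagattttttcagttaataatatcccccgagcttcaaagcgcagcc
Mycn held 3 matches to TTTNGCGC, which began 183, 179 and 168 bases before the start, in a run of 54.8% GC. This motif was found in 1.38% of the 32851 promoters in the table over windows of 300 bases (250 before and 50 after the start). The windows of Cdkn1b (64.4% GC before the start) and Ccne1 (76.0% GC) held none of the motifs searched, on both strands: the E-box CACGTG (in 7.15% of promoters), TTTNGCGC, the second E2F motif TTTCCCGC (1.07%), the CRE TGACGTCA (1.79%), AP-1 TGANTCA (7.81%), STAT TTCNNNGAA (8.3%), TEAD GGAATG (14.7%) and the CArG box (1.63%). Of the genes not printed, both windows of Cdkn1a held none of these motifs, and of the windows of Ccnd3 one held a TEAD match, 17 bases before the start, and no E2F match. With 5 genes matched, no pattern between called and uncalled genes can be read from these windows. A match is a run of letters and not evidence of binding, and a missing match says only that these letters are not in the window.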

How the data were processed

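The authors made libraries from total RNA with a pico-input mammalian kit, trimmed reads with Trim Galore 0.4.4, aligned them to mm10 with GSNAP and counted them per gene with HTSeq, and they deposited raw counts per gene. Whether counting used the strand of a read is not given in the sources used here. The 5 HTSeq summary rows (61.5 to 64.0% of column sums) and the 92 ERCC and 7 SIRV rows were left out of tests. Symbols, coordinates and exon lengths came from GENCODE M21. The fit took protein-coding genes in edgeR 4.0.16 (R 4.3.3), with filterByExpr at a minimum count of 10, TMM, a robust quasi-likelihood fit of all 6 groups without the library set aside, and Benjamini-Hochberg adjustment within each of 11 comparisons. The common dispersion was 0.00286 (coefficient of variation 5.35%). CPM were TMM-scaled over tested genes. Shared sequence was searched with blastn 2.17.0. The script was tested on simulated data. Alternatives are given after the report. The 10 genes, the lists and the rule for naming up to 3 called genes of each list, by lowest adjusted p, and the 3 most alike genes were chosen with earlier results of these data known.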

Additional observations from a re-analysis of the deposited data

How the results depend on the processing

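The 4 calls in the average contrast (Ccnd1, Ccne1, Myc, Cdkn1b) kept direction and call under all 8 other settings (DESeq2's size factors, DESeq2 1.42.0, no filter on low counts, all biotypes, a fit without robust, all 18 libraries, and soft, high AHA replicate 2 or 3 set aside in place of replicate 1, the last pair chosen after seeing the data) and without each of the 17 libraries in turn. Leaving out a library gave 4 to 5 genes called in the average, 0 to 1 at low AHA, 1 to 4 at mid AHA and 0 to 1 at high AHA. Without soft, high AHA replicate 2 or 3, 1 library of that group was left and was assumed to vary like the other groups. At high AHA, the count of 1 became 3 with all 18 libraries (Ccnd1, Ccne1, Cdkn1b), 2 with replicate 2 set aside in place of replicate 1 (Ccnd1, Ccne1) and 2 with replicate 3 (Ccnd1, Cdkn1b). Ccne2 was called in the average with replicate 3 set aside (log2 fold change -0.304, adjusted p = 0.0163), and at mid AHA it lost its call without the filter (0.0544), with all 18 libraries (0.0508), with all biotypes (0.0598) and in DESeq2 (0.0686). The causes were not tested. Genes near 0 in the average contrast changed sign: Cdkn1a was at -0.0014 with replicate 3 set aside, and Mycn at 0.0027 without the filter and 0.0018 with replicate 3 set aside. Leaving out each library moved Ccnd2 from -0.202 to -0.0792, Ccnd3 from -0.0396 to 0.0103, Cdkn1a from -0.0324 to 0.0473, Cdkn1c from -0.0387 to 0.0115 and Mycn from -0.027 to 0.0199, with no call. Comparisons of AHA concentrations and the interaction had 0 genes called under each of these settings. No paired analysis was possible because the labels carry no replicate number, and those used here only name libraries in sample order. Depth limited Ccnd2, Ccne2 and Cdkn1b most, with 53 to 163 reads per library.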
